A study of Mus musculus with 32 samples.

Results

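The genes described here encode the activin and TGF-β ligands and the secreted proteins that bind them. They were chosen by name, as the rows of the count table whose Ensembl identifier maps to *Inhba*, *Inhbb*, *Tgfb1*, *Tgfb2*, *Tgfb3*, *Gdf15*, *Fst*, *Fstl1*, *Fstl3* or *Ltbp1*. The rule itself used no measured value, but earlier results of these data were known when the genes were chosen. Of these 10 genes, 9 were among the 12451 genes of the table, and *Gdf15* was not analysed here. mRNA was measured by BRB-seq, in which the 3′ ends of transcripts are barcoded by sample and sequenced as a pool, in YUMM3.3, a *Braf* mutant mouse melanoma cell line. The 32 samples were separate wells of this line in 8 groups of 4: untreated cells (labelled NT), cells given 40 ng/ml Activin-A (ActA), cells given 20 ng/ml IFN-γ (IFNy) and cells given both (ActA_IFNy), at 4 hrs and at 12 hrs. All wells were of a single line, so that p-values measure only the spread between wells.

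Activin-A is a dimer of βA subunits, the product of *Inhba*, and binds type II and type I receptor kinases that phosphorylate the SMAD2 and SMAD3 transcription factors, a pathway that the TGF-β ligands share through receptors of their own. Follistatin (*Fst*) and follistatin-like 3 (*Fstl3*) wrap around activin dimers outside the cell and keep them from the receptors, and activin signaling is known to raise the transcription of both in many cell types, as a negative feedback. TGF-β itself is secreted in a latent complex that latent TGF-β binding proteins such as LTBP1 tether to the matrix. The Activin-A of the treatment was added as protein, so the *Inhba* mRNA counted here is the cells' own.

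Promoter sequences are shown for the 2 activin subunit genes and for 2 follistatin family genes, as the results turn on them. They are RefSeq's for GRCm38.p6, from 250 bases before to 50 bases after the start, at chr13:16011601-16011900 (+ strand) for *Inhba*, chr1:119422199-119422498 (− strand) for *Inhbb*, chr10:79777024-79777323 (+ strand) for *Fstl3* and chr16:37776805-37777104 (+ strand) for *Fstl1*. Capitals mark matches, on either strand, to the SMAD box CAGAC (reverse complement GTCTG) and to the core of the interferon-stimulated response element (GAAA, any 2 bases, GAAA). The AP-1 motif TGANTCA was searched too.
Inhba: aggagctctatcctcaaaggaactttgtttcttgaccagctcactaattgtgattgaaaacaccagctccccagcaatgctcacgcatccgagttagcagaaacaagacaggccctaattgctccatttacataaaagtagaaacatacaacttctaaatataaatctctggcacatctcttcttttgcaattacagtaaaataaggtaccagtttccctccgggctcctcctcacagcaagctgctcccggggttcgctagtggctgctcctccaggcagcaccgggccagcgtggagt
Inhbb: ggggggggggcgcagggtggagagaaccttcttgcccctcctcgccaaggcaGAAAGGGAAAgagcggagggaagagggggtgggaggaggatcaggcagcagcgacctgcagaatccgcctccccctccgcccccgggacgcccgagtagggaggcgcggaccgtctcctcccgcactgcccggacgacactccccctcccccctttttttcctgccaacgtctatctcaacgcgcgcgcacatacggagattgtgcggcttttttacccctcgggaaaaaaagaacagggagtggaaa
Fstl3: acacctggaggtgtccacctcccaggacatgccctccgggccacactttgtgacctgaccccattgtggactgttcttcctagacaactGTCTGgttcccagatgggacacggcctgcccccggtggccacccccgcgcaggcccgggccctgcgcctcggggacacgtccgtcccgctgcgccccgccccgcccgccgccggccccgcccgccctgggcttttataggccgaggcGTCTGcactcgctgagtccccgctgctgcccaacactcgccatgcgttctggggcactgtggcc
Fstl1: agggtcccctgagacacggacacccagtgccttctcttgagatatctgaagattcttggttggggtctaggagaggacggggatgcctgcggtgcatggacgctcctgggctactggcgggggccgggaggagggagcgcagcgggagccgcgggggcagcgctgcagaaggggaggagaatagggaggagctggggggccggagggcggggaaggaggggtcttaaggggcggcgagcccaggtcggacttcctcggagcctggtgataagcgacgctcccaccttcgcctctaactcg

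The *Fstl3* window held 2 SMAD boxes, at -161 and -14 from the start. The *Inhbb* window held 1 match to the interferon response element core, at -198. None of these motifs was found in the windows of *Inhba* and *Fstl1*. Among 32851 RefSeq promoters of this length, 49.6% held a SMAD box, 3.44% the interferon response element core and 7.81% an AP-1 motif, so that a SMAD box in such a window is common. RefSeq promoters were matched for 7 of the 9 genes, and those of *Fst* and *Tgfb3* were not analysed here. Of the others, *Tgfb2* held 2 SMAD boxes, *Tgfb1* none of these motifs, and the windows of the 2 starts of *Ltbp1* held 1 and 2 SMAD boxes.

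Total counts per sample ranged from 654539 to 1455074, so that a floor of 3 counts is worth 2.06 to 4.58 CPM, counts scaled to a common depth. Over all genes, 1 well stood apart from its group: well 1 of Activin-A at 4 hrs, the deepest sample, differed from the other 3 by a chi-square of 2.45 to 2.89 per gene, against 1.16 to 1.54 in the other 45 pairs of replicates. Without it, *Inhba* and *Fst* were still called with Activin-A at 4 hrs (log2FC 0.49 and -0.62, edgeR adjusted p = 0.0065 and 9.55e-12), as were *Inhbb*, *Fst* and *Fstl1* with both factors against Activin-A (log2FC 1.27, 1.80 and 0.54, edgeR adjusted p = 0.0253, 5.94e-43 and 6.29e-08), whereas *Tgfb1* in the latter comparison was not (log2FC -0.38, edgeR adjusted p = 0.27). *Tgfb2*, with 0 to 15 counts a well, and *Fstl3*, with 0 to 11, were removed by the filter on low counts, which left 7 of the 9 genes for edgeR's quasi-likelihood test. All 7 melanocyte lineage markers checked were present in every sample, among them *Pmel* at 101 to 144 CPM, and the endothelial and keratinocyte markers were not in the table. The summed level of the immune markers was 7.19 to 10.1 CPM over the groups, with 3 of 5 in the table. Of the fibroblast markers, 2 of 3 were in the table, with a summed level of 37.9 to 62.4 CPM. The treatments were seen in their own checks: *Smad7*, *Skil* and *Pmepa1*, SMAD targets, rose with Activin-A at 4 hrs (*Skil* not with DESeq2, adjusted p = 0.153) and *Pmepa1*, but neither *Smad7* nor *Skil*, at 12 hrs, and *Irf1*, *Gbp2* and *Socs1*, targets of IFN-γ, rose with IFN-γ at both times. In the wells with both factors at 12 hrs, *Pmepa1* and *Skil* were lower than with Activin-A alone (log2FC -1.24 ± 0.14 and -1.26 ± 0.29, edgeR adjusted p = 2.13e-12 and 0.000827). Over IFN-γ alone *Pmepa1* was higher at 4 hrs and at 12 hrs (log2FC 2.45 ± 0.11 and 0.93 ± 0.19, edgeR adjusted p = 1.07e-24 and 0.00114), at 12 hrs not with DESeq2 (adjusted p = 0.0569). *Smad7* was called in none of these comparisons.

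Activin-A alone changed 2 of the 7 tested genes at 4 hrs, *Inhba* upwards and *Fst* downwards, where 1.64% of 9137 genes tested were called at an adjusted p under 0.05. At 12 hrs it changed 3, with *Fstl1* as the third, where 2.41% of 8971 genes were called. IFN-γ alone changed 5 at 4 hrs, where 5.06% of genes were called, and 3 at 12 hrs, where 9.25% were. *Inhbb*, *Fst* and *Fstl1* rose with IFN-γ at both times, and *Tgfb1* and *Tgfb3* fell at 4 hrs. When Activin-A was added to IFN-γ, none of the 7 passed the threshold at 4 hrs (0.81% of all genes called), with 3 at an unadjusted p under 0.05 by edgeR and 0 called by DESeq2. At 12 hrs *Inhba* and *Fstl1* rose in this comparison (1.03% of all genes called). When IFN-γ was added to Activin-A, 4 genes changed at 4 hrs (6.07% of all genes called) and 4 at 12 hrs (9.62% called). These comparisons share control wells and are therefore not independent of each other. The median log2FC of the 7 genes was 0.02 for Activin-A and 0.03 for IFN-γ at 4 hrs, beside medians of 0.00 and -0.01 over all genes tested. At 12 hrs the medians of the 7 were 0.01 and 0.08, beside 0.00 and -0.01.

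**Figure D1:**
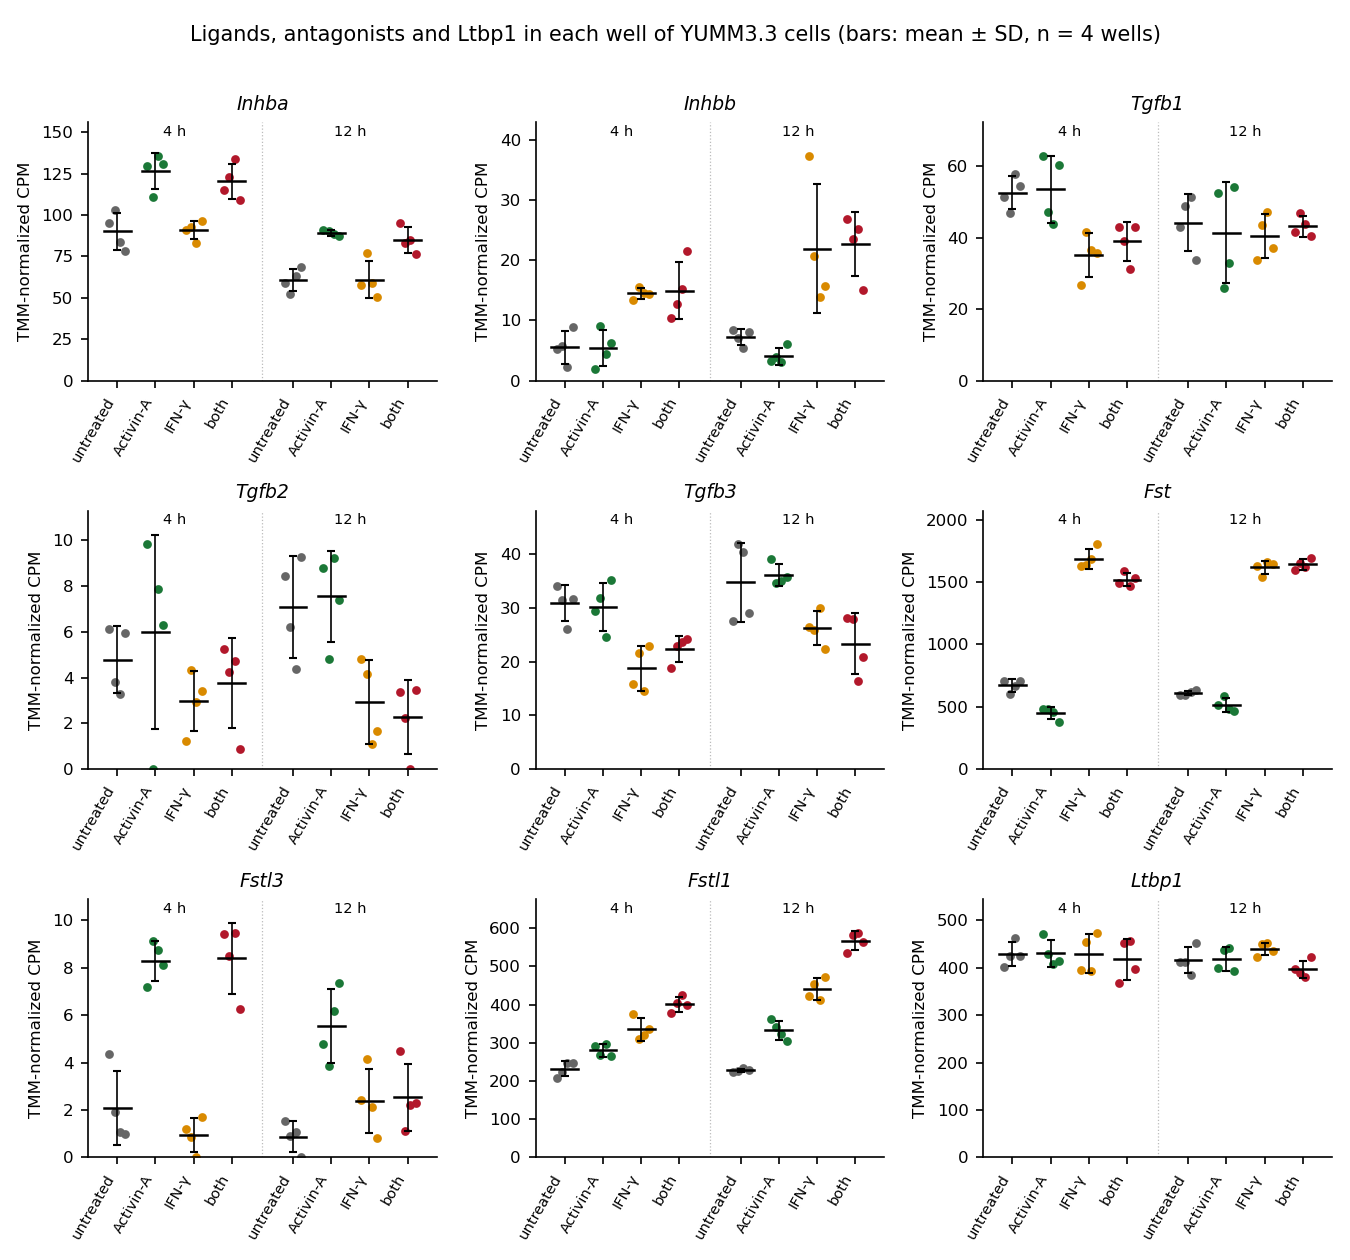
TMM-normalized CPM (y axis, from 0) of the 9 genes in each well of the 8 groups (x axis), with 4 points a group and bars for the mean ± SD. The IFN-γ and combined groups of Fst lie between 1466 and 1801 CPM at both times, and those of the other 2 treatments between 377 and 709 CPM, while Ltbp1 is level across the groups.

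*Inhba*, the gene of the βA subunit, rose with Activin-A alone at both times. At 4 hrs the untreated wells had 95.1, 103, 83.9 and 78.4 CPM and the Activin-A wells 130, 111, 136 and 131 CPM. Each well with Activin-A was above each untreated well, a 1.42-fold difference (log2FC 0.51 ± 0.11 SE, edgeR adjusted p = 0.00256). By 12 hrs the untreated wells had 59.1, 52.5, 63.4 and 68.5 CPM and the Activin-A wells 90.9, 90.3, 88.3 and 87.3 CPM, again without overlap (1.48-fold, log2FC 0.56 ± 0.13, edgeR adjusted p = 0.00189). Own *Inhba* mRNA thus rose with the added ligand at both times, and the effects at 12 and 4 hrs differed by 0.06 ± 0.16 on the log2 scale (edgeR adjusted p = 0.99).

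IFN-γ did not shift *Inhba* by more than the spread between wells. Its wells had 91.2, 92.6, 83.2 and 96.2 CPM at 4 hrs and 57.8, 76.8, 59.0 and 50.4 CPM at 12 hrs, both within or around the range of untreated wells. The log2FC was 0.03 ± 0.12 at 4 hrs and 0.00 ± 0.14 at 12 hrs. With both factors the wells had 115, 123, 134 and 109 CPM at 4 hrs and 95.3, 82.8, 84.6 and 76.4 CPM at 12 hrs. Against IFN-γ alone this gave a log2FC of 0.39 ± 0.11 at 4 hrs, not called (edgeR adjusted p = 0.0712), although the wells of the 2 groups did not overlap. The 12 hrs value was a log2FC of 0.49 ± 0.13 (edgeR adjusted p = 0.0392), and the groups overlapped by the IFN-γ well at 76.8 CPM. This last call was lost with DESeq2 (adjusted p = 0.202).

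The level of *Inhba* also differed between the time points, although time cannot be told apart from how the wells were collected. Untreated cells had 90.2 ± 11.1 CPM (SD, n = 4) at 4 hrs and 60.9 ± 6.78 CPM at 12 hrs, and it was the only 1 of the 7 genes called between the untreated groups (log2FC -0.58 ± 0.12, edgeR adjusted p = 0.000643, where 4.9% of 9332 genes were called). In the order of the 8 group means, Activin-A and both factors at 4 hrs were highest, at 127 and 120 CPM, and IFN-γ and untreated cells at 12 hrs lowest, at 61.0 and 60.9 CPM. The 4 groups between them lay from 84.8 to 90.8 CPM and overlapped, so that *Inhba* with Activin-A at 12 hrs was at the level of untreated cells at 4 hrs.

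*Inhbb*, the gene of the βB subunit of activin B, responded to the other factor. Untreated wells held 6, 6, 2 and 9 counts at 4 hrs and 11, 8, 5 and 7 at 12 hrs, close to the floor of detection. With IFN-γ they held 11, 18, 10 and 17 counts at 4 hrs and 31, 20, 13 and 19 at 12 hrs. In CPM the IFN-γ wells lay above the untreated wells without overlap at both times, at 14.5 ± 0.904 against 5.52 ± 2.76 CPM (n = 4 each; 2.6-fold, log2FC 1.38 ± 0.37, edgeR adjusted p = 0.0105) and at 21.9 ± 10.7 against 7.29 ± 1.34 CPM (2.84-fold, log2FC 1.51 ± 0.31, edgeR adjusted p = 0.000128). The call at 4 hrs was lost without untreated well 3, which held 2 counts (edgeR adjusted p = 0.0731). The well at 31 counts, or 37.3 CPM, stood above the other 3 of its group at 13.9 to 20.8 CPM.

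Activin-A alone gave *Inhbb* counts of 3, 6, 5 and 7 at 4 hrs and 4, 4, 3 and 5 at 12 hrs. These were not distinguishable from untreated wells at this depth (log2FC -0.22 ± 0.46 and -0.89 ± 0.45, edgeR adjusted p = 0.916 and 0.445). With both factors the counts were 10, 15, 16 and 24 at 4 hrs and 24, 21, 23 and 13 at 12 hrs, a log2FC over Activin-A alone of 1.64 ± 0.36 (edgeR adjusted p = 0.00108) and 2.50 ± 0.36 (edgeR adjusted p = 2.21e-08). The 4 groups with IFN-γ thus held the 4 highest means, 14.5 to 22.7 CPM, and were apart from the 4 groups without it, 4.07 to 7.29 CPM.

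The TGF-β genes, whose products signal through TGFBR2 and TGFBR1, were lower with IFN-γ or were not called. *Tgfb1* had 51.5, 46.8, 57.8 and 54.6 CPM in untreated wells at 4 hrs and 26.8, 41.6, 36.5 and 35.7 CPM with IFN-γ, a fall without overlap (log2FC -0.55 ± 0.17, edgeR adjusted p = 0.0338). With both factors it had 39.0 ± 5.50 CPM against 53.5 ± 9.51 CPM with Activin-A alone at 4 hrs (log2FC -0.48 ± 0.15, edgeR adjusted p = 0.0472). Neither call was kept by DESeq2 (adjusted p = 0.105 and 0.189), and each was lost when any of 6 of the 8 wells compared was left out. The 4 means at 12 hrs were 40.4 to 44.3 CPM, all overlapping, and no comparison passed the threshold.

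*Tgfb3* had 34.0, 31.5, 26.2 and 31.7 CPM in untreated wells at 4 hrs and 15.8, 21.6, 14.6 and 23.0 CPM with IFN-γ (log2FC -0.66 ± 0.21, edgeR adjusted p = 0.0477). At 12 hrs the wells with both factors had 28.0, 28.0, 16.5 and 20.8 CPM and those with Activin-A alone 39.1, 34.6, 34.9 and 35.7 CPM (log2FC -0.63 ± 0.20, edgeR adjusted p = 0.029). The groups did not overlap in either comparison, and both calls were lost with DESeq2 (adjusted p = 0.162 and 0.11). The other contrasts with IFN-γ, both factors against Activin-A at 4 hrs and IFN-γ against untreated cells at 12 hrs, gave -0.41 ± 0.20 and -0.41 ± 0.19 and were not called (edgeR adjusted p = 0.282 and 0.217). In the order of means the 4 groups without IFN-γ, 30.3 to 36.1 CPM, stood above the 4 groups with it, 18.8 to 26.2 CPM, although neighbours in that order overlapped. Activin-A alone gave a log2FC of -0.04 ± 0.18 at 4 hrs and 0.07 ± 0.18 at 12 hrs.

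*Tgfb2* was near the floor, with 30 counts over the 4 untreated wells at 12 hrs (11, 7, 4 and 8) and 11 over the IFN-γ wells (4, 4, 1 and 2). The ratio of counts at equal depth was 0.391, with an exact 95% interval of 0.177 to 0.803 that covers counting error only, and the 2-sided exact permutation test of the CPM gave p = 0.0571. With both factors at 12 hrs there were 8 counts (3, 2, 0 and 3) against 31 with Activin-A alone (11, 5, 9 and 6), a ratio of 0.296 (0.118 to 0.658). These wells did not overlap, and the exact p = 0.0286 is the smallest that 4 against 4 wells can give. Adjusted over the 16 such tests of the low-count genes it was 0.114, and edgeR without the filter on low counts called this difference (log2FC -1.69 ± 0.55, adjusted p = 0.0323). At 4 hrs the counts were 20, 31, 12 and 16 for untreated, Activin-A, IFN-γ and both, with no exact p under 0.171.

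*Fst* fell with Activin-A and rose with IFN-γ. Untreated wells at 4 hrs had 707, 600, 669 and 709 CPM, and wells with Activin-A had 479, 482, 459 and 377 CPM. All 4 were below the lowest untreated well (log2FC -0.58 ± 0.07, a level 0.67 times that of untreated cells, edgeR adjusted p = 3.39e-08). By 12 hrs the untreated wells had 597, 593, 614 and 635 CPM and the Activin-A wells 517, 586, 484 and 463 CPM, lower still without overlap but by less (log2FC -0.25 ± 0.06, edgeR adjusted p = 0.00501). Without Activin-A well 4 at 12 hrs this call was lost (edgeR adjusted p = 0.06). The difference between the 2 effects was 0.34 ± 0.09 with an edgeR adjusted p = 0.351, so a difference between the times was not called.

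With IFN-γ, *Fst* rose to 1628, 1634, 1681 and 1801 CPM at 4 hrs and to 1630.0, 1540.0, 1656 and 1647 CPM at 12 hrs. These wells stood far above all untreated wells, 2.53-fold at 4 hrs (log2FC 1.34 ± 0.07, edgeR adjusted p = 4.71e-25) and 2.65-fold at 12 hrs (log2FC 1.41 ± 0.05, edgeR adjusted p = 2.98e-43). With both factors *Fst* stood at 1491, 1585, 1466 and 1528 CPM at 4 hrs and at 1593, 1653, 1619 and 1695 CPM at 12 hrs. Over Activin-A alone this was 3.39-fold at 4 hrs and 3.19-fold at 12 hrs (log2FC 1.76 ± 0.07 and 1.68 ± 0.06, edgeR adjusted p = 4.09e-30 and 1.21e-48). These 4 calls held in each alternative and with each well left out.

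The fall of *Fst* with Activin-A was smaller in the presence of IFN-γ, by a difference that did not pass the threshold. Added to IFN-γ, Activin-A gave a log2FC of -0.16 ± 0.06 at 4 hrs (edgeR adjusted p = 0.338) and 0.02 ± 0.05 at 12 hrs (edgeR adjusted p = 0.954), against -0.58 and -0.25 without IFN-γ. The interaction, the first effect minus the second, was 0.42 ± 0.09 at 4 hrs. By unadjusted edgeR p, 3.04e-05, *Fst* ranked 1 of 9137 genes in this contrast, with an edgeR adjusted p = 0.278. None of the 7 genes was called (0% of all genes called; 1 of the 7, *Fst*, at an unadjusted p under 0.05, and 0 called by DESeq2). The *Fst* interaction passed the threshold when all 32 samples were fitted together (edgeR adjusted p = 0.0377) or without the filter on low counts (0.0495), and also without the Activin-A well that stood apart (log2FC 0.47, edgeR adjusted p = 0.00176). At 12 hrs the interaction was 0.27 ± 0.08 (edgeR adjusted p = 0.257), and again none of the 7 was called, with 0.0111% of all genes called, 1 of the 7 at an unadjusted p under 0.05 by edgeR and 0 called by DESeq2.

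**Figure D2:**
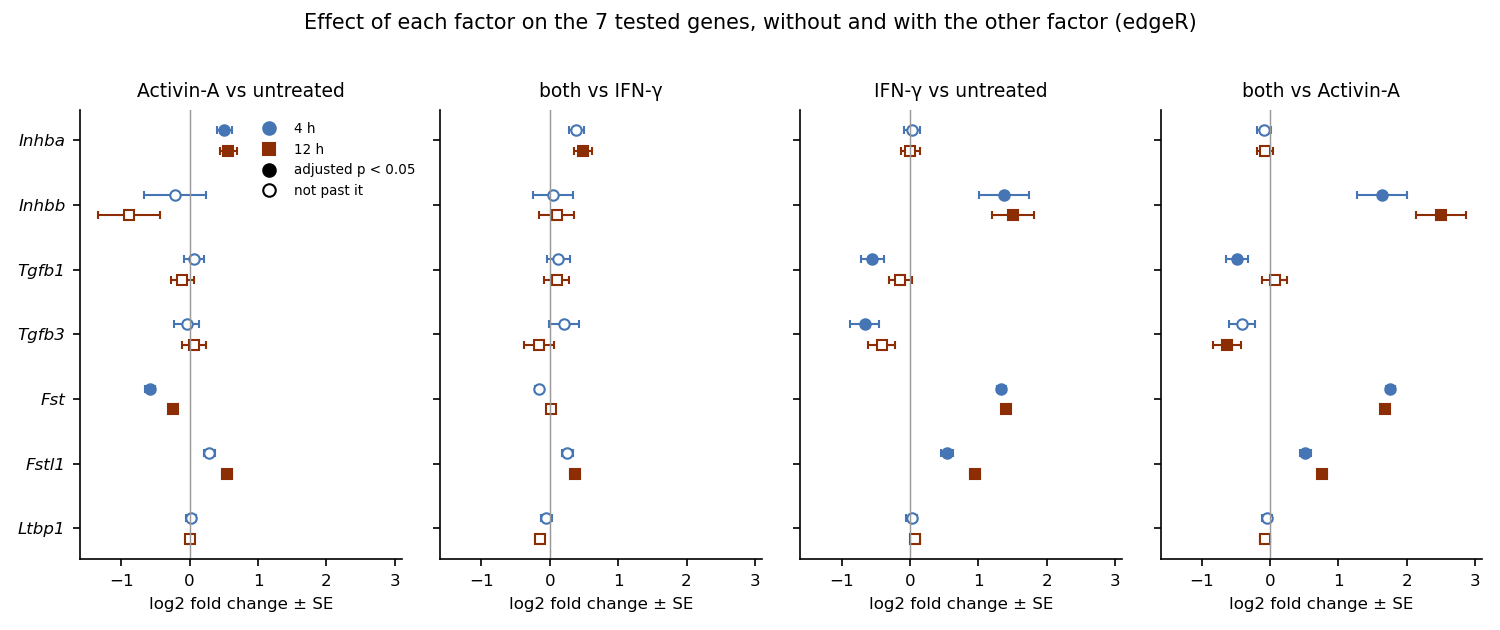
Log2 fold change ± SE (x axis) of the 7 tested genes (y axis) in the 4 pairwise comparisons, with circles for 4 h, squares for 12 h, and filled symbols where the edgeR adjusted p was under 0.05. Inhba lies to the right in the 2 panels on Activin-A and at 0 in the 2 on IFN-γ, while Inhbb and Fst lie to the right in the panels on IFN-γ, at 1.34 to 2.50.

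*Fstl3*, the other activin antagonist, had few counts, and more of them with Activin-A than in untreated wells. At 4 hrs the untreated wells held 5, 2, 1 and 1 counts and the Activin-A wells 11, 6, 10 and 9. In CPM no well of the 2 groups overlapped, and the ratio of 36 to 9 counts at equal depth was 3.71 (exact 95% interval 1.75 to 8.77, exact permutation p = 0.0286, 0.114 adjusted over 16 tests). Without the Activin-A well that stood apart the ratio was 3.93 (1.77 to 9.57). Without the filter on low counts edgeR gave a log2FC of 1.84 ± 0.51 with an adjusted p = 0.0321. At 12 hrs there were 22 counts with Activin-A (6, 4, 6 and 6) and 4 in untreated wells (2, 1, 1 and 0), a ratio of 5.66 (1.92 to 22.6, exact permutation p = 0.0286; edgeR without the filter, adjusted p = 0.0383). The untreated and IFN-γ wells held at most 5 counts at either time, at or close to the floor of 3.

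With IFN-γ present, *Fstl3* counts were as follows. At 4 hrs the wells with both factors held 9, 10, 10 and 7 counts and those with IFN-γ alone 1, 1, 0 and 2 (ratio 8.02, 2.88 to 31, exact permutation p = 0.0286; edgeR without the filter, adjusted p = 0.00147). At 12 hrs both groups held 9 counts in all (4, 1, 2 and 2 with both factors, 2, 4, 2 and 1 with IFN-γ), a ratio of 1.11 with an interval of 0.389 to 3.14. The ratio of both factors to Activin-A alone at 12 hrs was 0.469 (0.19 to 1.06, exact permutation p = 0.0571). In edgeR without the filter the interaction for *Fstl3* was 1.03 ± 0.89 at 4 hrs and -2.21 ± 1.03 at 12 hrs and was not called (adjusted p = 0.94 and 0.723).

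*Fstl1* encodes a more distant, secreted relative of follistatin, and rose with IFN-γ at both times and with Activin-A at 12 hrs. Untreated wells had 209, 223, 247 and 248 CPM at 4 hrs and 224, 227, 234 and 228 CPM at 12 hrs. With IFN-γ they had 376, 309, 320 and 335 CPM at 4 hrs (1.46-fold, log2FC 0.54 ± 0.08, edgeR adjusted p = 5.71e-07) and 422, 454, 411 and 473 CPM at 12 hrs (1.93-fold, log2FC 0.95 ± 0.07, edgeR adjusted p = 3.3e-22). The groups were well apart, and the effect of IFN-γ was larger at 12 hrs than at 4 hrs by 0.42 ± 0.11 on the log2 scale (edgeR adjusted p = 0.0315). It was the only 1 of the 7 genes called in this contrast, where 0.579% of 9332 genes were called, and DESeq2 gave an adjusted p = 0.0527.

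Activin-A alone gave *Fstl1* levels of 290.3, 267, 297 and 265 CPM at 4 hrs, all above the untreated wells, with a log2FC of 0.29 ± 0.08 that just missed the threshold (edgeR adjusted p = 0.0505). Levels at 12 hrs were 361, 341, 322 and 304 CPM (1.46-fold, log2FC 0.55 ± 0.07, edgeR adjusted p = 8.12e-09). Both factors gave 377, 403, 425 and 399 CPM at 4 hrs and 535, 583, 588 and 563 CPM at 12 hrs. The combined wells at 12 hrs were above all other wells of the series, at a log2FC of 0.36 ± 0.06 over IFN-γ (edgeR adjusted p = 4.25e-05) and 0.77 ± 0.07 over Activin-A (edgeR adjusted p = 2.02e-18). At 4 hrs the same contrasts gave 0.26 ± 0.08 (edgeR adjusted p = 0.0851, not called) and 0.52 ± 0.08 (edgeR adjusted p = 4.53e-07). The interaction was -0.03 ± 0.11 at 4 hrs and -0.18 ± 0.10 at 12 hrs (edgeR adjusted p = 0.987 and 0.764), so that a departure from additive log2 effects was not called.

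*Ltbp1*, the latent TGF-β binding protein, was called in no comparison. Its group means ran from 398 ± 18.0 to 440.0 ± 13.4 CPM (n = 4), the highest 1.11 times the lowest, and neighbours in that order overlapped throughout. The largest of its 8 pairwise log2FC within a time point was -0.15 ± 0.07, for both factors against IFN-γ at 12 hrs, where the 2 groups did not overlap (edgeR unadjusted p = 0.0283, edgeR adjusted p = 0.407).

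With Activin-A alone *Fst* fell and *Inhba* rose, and the ratio of their counts within a well needs no normalization between wells. The counts are of 3′ ends and not per length, so that only differences between groups are read from the ratio, which was not tested. Untreated wells at 4 hrs had 7.43, 5.81, 7.97 and 9.05 *Fst* counts per *Inhba* count and Activin-A wells 3.69, 4.34, 3.39 and 2.89. IFN-γ wells at 4 hrs had 17.9, 17.6, 20.2 and 18.7, and the wells with both factors 13.0, 12.9, 11.0 and 14.0. The 4 groups did not overlap, in the order Activin-A, untreated, both, IFN-γ. At 12 hrs the means in that order were 5.74 ± 0.526, 10.1 ± 0.869, 19.5 ± 2.27 and 27.3 ± 5.26 (SD, n = 4), with an overlap between the last 2 groups only.

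**Figure D3:**
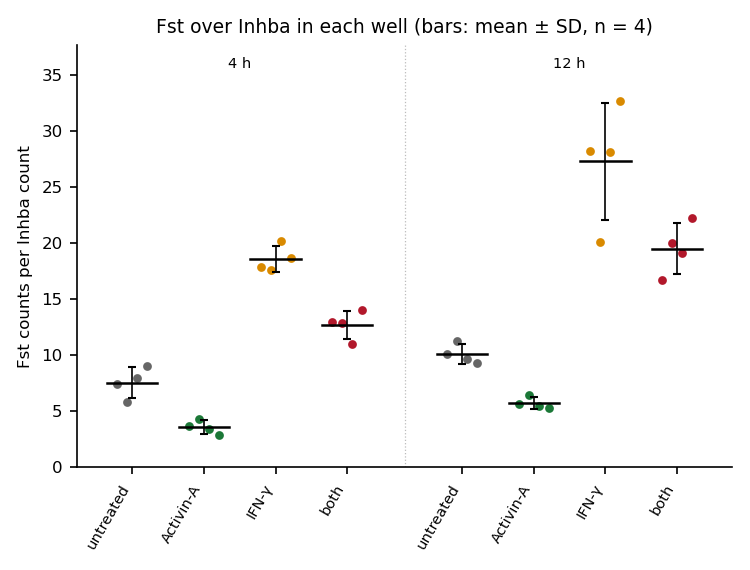
Fst counts per Inhba count (y axis, from 0) in each well of the 8 groups (x axis), with bars for the mean ± SD of 4 wells. At both times the ratio is lowest with Activin-A, at 3.58 and 5.74 on average, and highest with IFN-γ, at 18.6 and 27.3.

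The contrast of the Activin-A effect at 12 hrs with that at 4 hrs called none of the 7 genes (0.0214% of 9332 genes called), with *Fst* and *Fstl1*, 2 of the 7, at an unadjusted p under 0.05 by edgeR and 0 called by DESeq2.

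Over the 8 group means of log2 CPM, *Inhbb* and *Fst* followed each other (Pearson r = 0.951), and *Tgfb3* ran against *Fst* (r = -0.87), while *Inhba* and *Fst* were hardly related (r = -0.166). These 8 points share the pool, the factors and the times, and the correlations describe the groups only. Among 8621 genes with a mean of at least 10 counts, those most like *Fst* were *Tapbpl*, *Kat2b* and *Psma5* (r = 0.994, 0.99 and 0.989). *Tapbpl* encodes an MHC class I peptide editor and *Psma5* a proteasome subunit. Those most like *Inhba* were *Cdh6*, a cadherin, *Tjap1* and *Hs6st2*, a heparan sulfate sulfotransferase (r = 0.99, 0.963 and 0.957). *Cdh6* spanned 2.43 log2 units over the groups and *Inhba* 1.04. For *Inhbb* they were *Pcolce*, *Pcgf5* and *Slit2*, for *Fstl1* *Taf5l*, *Col8a1* and *Cnn3*, for *Tgfb3* *Pcnx4*, *Apcdd1* and *Nudt4*, and for *Tgfb1* *Ufl1*, *Ppp1r18* and *Bptf*, with r from 0.927 to 0.99.

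Of 23 other ligand genes of the family, 9 were in the table and 4 were tested. *Bmp2* rose with IFN-γ at 12 hrs, from 149 ± 10.3 to 230.0 ± 16.6 CPM (n = 4; log2FC 0.61 ± 0.09, edgeR adjusted p = 7.53e-09), and was lower with both factors than with IFN-γ (log2FC -0.31 ± 0.09, edgeR adjusted p = 0.0385). *Bmp4* fell with IFN-γ at 12 hrs from 27.8 ± 5.59 to 16.8 ± 7.20 CPM (log2FC -0.82 ± 0.25, edgeR adjusted p = 0.0174). DESeq2 kept neither this call nor that of *Bmp2* with both factors against IFN-γ (adjusted p = 0.117 and 0.207). No other ligand was called with a single factor at either time, and the median log2FC of the tested ligands was -0.44 for Activin-A and -0.33 for IFN-γ at 4 hrs and -0.10 and -0.30 at 12 hrs.

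Of 17 other secreted antagonists, which bind mostly BMPs, 8 were in the table and 5 were tested at 4 hrs and 4 at 12 hrs. *Twsg1* rose with IFN-γ at both times (log2FC 0.43 ± 0.12 and 0.56 ± 0.11, edgeR adjusted p = 0.0155 and 9.92e-05; DESeq2 adjusted p = 0.0584 at 4 hrs), and *Grem1* fell with IFN-γ at 4 hrs (log2FC -0.37 ± 0.08, edgeR adjusted p = 0.000445).

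Of 22 listed genes of latency, storage and activation, 14 were tested at 4 hrs and 13 at 12 hrs, and Activin-A raised 4 at 4 hrs and 6 at 12 hrs and lowered none of them, where 1.64% and 2.41% of all genes were called, with medians of 0.24 and 0.33 on the log2 scale beside 0.00 over all genes at both times. *Thbs1*, thrombospondin 1, an activator of latent TGF-β, went from 732 ± 43.9 to 1570.0 ± 166 CPM at 4 hrs (log2FC 1.11 ± 0.06, edgeR adjusted p = 1.24e-20). *Itgav*, *Itgb1* and *Itgb5*, integrin subunits, also rose at both times, and *Bgn*, biglycan, and *Ltbp4*, a relative of *Ltbp1*, at 12 hrs, the last not with DESeq2 (adjusted p = 0.17). IFN-γ raised 2 of the 14 at 4 hrs, where 5.06% of all genes were called, and raised 1 and lowered 2 of the 13 at 12 hrs, where 9.25% were. The genes raised included each time *Furin*, the protease that cleaves activin and TGF-β precursors (log2FC 0.51 ± 0.09 and 0.39 ± 0.09, edgeR adjusted p = 4.7e-05 and 0.000804), and those lowered were *Fbn2* and *Itgav*, the latter not with DESeq2 (adjusted p = 0.146). The other gene raised at 4 hrs, *Thbs1*, was not called with DESeq2 either (adjusted p = 0.0952). With IFN-γ added to Activin-A, 1 of the 14 rose and 2 fell at 4 hrs, where 6.07% of all genes were called. At 12 hrs 4 of the 13 fell and 0 rose, where 9.62% were called. These 4 were *Itgav*, *Itgb5*, *Ltbp4* and *Itgb1* (log2FC -0.66 ± 0.10, -0.595 ± 0.11, -0.32 ± 0.09 and -0.30 ± 0.06, edgeR adjusted p = 4.37e-08, 2.29e-05, 0.00923 and 1.77e-05).

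Of 15 receptors and co-receptors, 11 were in the table, 9 tested at 4 hrs and 8 at 12 hrs. *Vasn*, a TGF-β binding membrane protein, rose with Activin-A at 4 hrs (log2FC 0.39 ± 0.10, edgeR adjusted p = 0.0313). *Tgfbr3*, betaglycan, fell with Activin-A at 12 hrs, from 19.9 ± 3.57 to 10.1 ± 3.35 CPM (log2FC -0.99 ± 0.29, edgeR adjusted p = 0.038). *Eng*, endoglin, rose with IFN-γ at 12 hrs (log2FC 0.47 ± 0.15, edgeR adjusted p = 0.0233). DESeq2 kept none of these 3 calls (adjusted p = 0.106, 0.167 and 0.116). No other receptor was called with a single factor.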

How the data were processed

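YUMM3.3 cells were treated in wells and sequenced as a MERCURIUS BRB-seq library. Counts per gene were deposited by the authors as raw integers. Their processing notes name STAR 2.7.10b, featureCounts, DESeq2 1.36.0 and GRCm39. The annotation, strand setting and handling of unique molecular identifiers are not given in the sources used here, so that reads shared by related genes stayed as counted. Symbols were matched for 12437 of 12451 genes and 14 were unmatched. Total counts were 654539 to 1455074 per sample (median 988019.5), and intervals and floors cover counting error only.

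Analyses used R 4.3.3, edgeR 4.0.16 and DESeq2 1.42.0, and Python 3.11.15. Genes were filtered with filterByExpr, normalized by TMM and tested with the quasi-likelihood F-test of glmQLFTest, on the 16 wells of each time point or on all 32 wells for contrasts between time points, with Benjamini-Hochberg adjustment over all tested genes and a threshold of 0.05. SE were derived from log2FC and the F statistic. Group means are ± SD of TMM-normalized CPM (n = 4), and log2 CPM had a prior count of 2. Genes removed by the filter were compared by exact permutation tests of CPM, 2-sided, and by exact 95% intervals of the ratio of summed counts. Scripts were tested on simulated data. Replicates of a group differed by more than sampling noise, and none was a duplicate. Values of low-count genes without 1 well that stood apart were added after seeing the data.

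Alternatives were DESeq2's Wald test, which the study used, RLE normalization, no filter, a replicate block, 1 fit to all 32 wells, and each well left out. The listed genes and treatment checks are named. So are the 3 genes most like each called gene, by Pearson r over group means among genes averaging 10 or more counts, and the called genes of 4 pathway lists. Some genes of the checks and lists, and a further promoter motif that was searched, are not reported here. The genes and lists were chosen with earlier results of these data known. Promoters are from RefSeq GRCm38.p6 and not the build of the counts, and no coordinate was converted. The legends of the study differ from its methods on the dose of Activin-A, and the dose of the methods and labels is given.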

Additional observations from a re-analysis of the deposited data

Results flagged for a closer look

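The rise of *Fstl1* with IFN-γ differed between the time points, with a log2FC larger by 0.42 ± 0.11 at 12 hrs than at 4 hrs (edgeR adjusted p = 0.0315). The call was lost with DESeq2 (adjusted p = 0.0527), without the filter on low counts (edgeR adjusted p = 0.051) and without any of 11 of 16 wells (up to 0.153). In untreated cells *Fstl1* stood at 232 ± 19.4 CPM (SD, n = 4) at 4 hrs and at 228 ± 4.13 CPM at 12 hrs, and with IFN-γ at 335 ± 29.2 and 440.0 ± 28.7 CPM. All 4 IFN-γ wells of 12 hrs were above all 4 of 4 hrs. Time points were separate wells, and time cannot be told apart from any difference in how they were collected. No well stood apart from its group by Dixon's criterion in any of the 72 groups of 4 wells checked (9 genes in 8 groups), where chance flags about 1 in 20.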

How the results depend on the processing

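No call of the 9 genes changed direction under any alternative run. The same alternatives were added, after seeing the data, for the 84 calls of the pathway lists and treatment checks: none changed direction, 57 held throughout, 17 were lost with DESeq2 and 26 with at least 1 well left out. The calls of *Fst* and *Fstl1* with IFN-γ and over Activin-A, *Fstl1* with Activin-A at 12 hrs and over IFN-γ at 12 hrs, *Inhba* and, at 4 hrs, *Fst* with Activin-A, *Inhbb* with IFN-γ at 12 hrs, and *Inhbb* over Activin-A held in all alternatives and with each well left out. With DESeq2 3 of the genes were called with IFN-γ at 4 hrs in place of 5, 1 with both factors against IFN-γ at 12 hrs in place of 2, and 0 in the contrast of IFN-γ effects between times in place of 1, as also without the filter. With all 32 samples in 1 fit, 2 genes (*Inhba* and *Fstl1*, adjusted p = 0.0466 and 0.0363) were called for both factors against IFN-γ at 4 hrs in place of 0, and 1, *Fst*, in the interaction at 4 hrs. That fit also added *Fstl1* with Activin-A at 4 hrs (0.0247) and lost *Tgfb1* with both factors against Activin-A at 4 hrs (0.0522). Without the filter 1 gene, *Fstl3*, was called for both factors against IFN-γ at 4 hrs and 1, *Fst*, in the interaction at 4 hrs. That fit also added *Fstl3* with Activin-A at 4 and 12 hrs (adjusted p = 0.0321 and 0.0383) and *Tgfb2* with both factors against Activin-A at 12 hrs (0.0323), and lost *Tgfb3* with IFN-γ at 4 hrs (0.0602) and *Tgfb1* with both factors against Activin-A at 4 hrs (0.0577). Fewer genes in all were called by DESeq2: 92 in place of 150 for Activin-A at 4 hrs, 140 in place of 216 at 12 hrs, 46 in place of 74 and 43 in place of 92 for both factors against IFN-γ, 569 in place of 863 for both against Activin-A at 12 hrs, 280 in place of 457 for time, and 0 in place of 1 for the interaction at 12 hrs, which had 8 without the filter. The cause was not tested.

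With each well left out in turn, 3 to 4 genes were called with IFN-γ at 4 hrs, 0 to 2 with both factors against IFN-γ at 4 hrs, 0 to 1 in the interaction at 4 hrs, 1 to 2 with both factors against IFN-γ at 12 hrs, and 0 to 1 in the contrast of IFN-γ effects. The *Fst* interaction at 4 hrs was called without Activin-A well 1 (adjusted p = 0.00176) and had adjusted p up to 0.845 without other wells. *Inhba* with both factors against IFN-γ at 12 hrs kept its call only without IFN-γ well 2 or combined well 4, *Tgfb1* with IFN-γ at 4 hrs only without IFN-γ well 2 or untreated well 2, *Tgfb3* with IFN-γ at 4 hrs only without IFN-γ well 4 or untreated well 3, and *Tgfb1* with both factors against Activin-A at 4 hrs only without Activin-A well 2 or 3. *Tgfb3* with both factors against Activin-A at 12 hrs was lost without Activin-A well 1 or combined well 3 or 4 (adjusted p up to 0.171), and the time contrast of *Fstl1* without any of 11 of 16 wells (up to 0.153). *Fstl1* with Activin-A at 4 hrs gained its call without any of 4 of 8 wells.

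Same-numbered wells of different treatments did not deviate together (mean r = -0.0018 at 4 hrs and 0.0013 at 12 hrs over 24 pairs of wells each), so the numbers share only a name. In a fit with a replicate block, the *Tgfb1* call with both factors against Activin-A at 4 hrs was lost (edgeR adjusted p = 0.0606, log2FC -0.48) and no other call of these genes changed. TMM and RLE scaling left the median log2FC over all genes between -0.0137 and 0.0096. Depth limits *Inhbb*, *Tgfb2* and *Fstl3* most.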
